A study of Mus musculus with 12 samples.

Results

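Hepatocytes re-enter the cell cycle after loss of liver mass under the control of secreted growth factors, and 10 genes for such factors were followed in lung macrophages of mice whose liver had been cut. The genes were Hgf, Tgfb1, Tgfb2, Fgf1, Hbegf, Areg, Vegfa, Igf1, Pdgfb and Tgfa. They were taken from a list of names, with earlier results of these data known. The probe annotation held 1 probe set for each of 9 of them among the 22206 probe sets tested, and Areg, the gene for amphiregulin, was not analysed here. Siglec-F positive cells were taken with magnetic beads from the lungs of male C57 Black mice. The protocol text given for every sample also speaks of macrophages cocultured with Ito cells, which are the stellate cells of the liver, or CD146 cells, and of HGF and MCSF in culture. No sample title or description names such a culture, and whether any applied to these arrays cannot be told from the labels. Some animals kept an intact liver; the others lost 70% of it and were taken 1, 3 or 7 days later, which gave 4 groups with 3 biological replicates and as many Clariom S mouse arrays in each. Age, a sham operation for the intact animals, and the number of animals behind an array are not given in the sources used here. The p-values therefore measure the spread between these samples.

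Hepatocyte growth factor, encoded by Hgf, is made by mesenchymal and other non-parenchymal cells, is cut into its active form by proteases and drives hepatocyte division through its receptor Met. Transforming growth factor alpha (Tgfa) and heparin-binding EGF-like growth factor (Hbegf) are membrane-anchored ligands of the EGF receptor that are released by shedding, whereas the TGF-beta proteins (Tgfb1, Tgfb2) are secreted in a latent form and restrain hepatocyte division. VEGF-A (Vegfa), PDGF-B (Pdgfb) and acidic FGF (Fgf1) act on vessels and mesenchyme, and IGF-1 (Igf1) is a product of liver and also of macrophages. Alveolar macrophages are long-lived cells of the airspace that clear surfactant.

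Alveolar macrophage markers were present throughout: all 10 measured markers of these cells lay above the upper 95% limit of the negative control probe sets on every array, and their mean level on an array was 8.89 to 9.43 at day 1, 9.19 to 9.27 at day 3 and 9.27 to 9.69 at day 7, against 9.27 to 9.59 on intact arrays (log2 signal). Siglecf, the gene of the protein used for the sort, read 8.61, 7.89 and 8.50 at day 1 and 8.38, 8.58 and 8.67 at day 3, against 8.69, 8.94 and 8.75 on intact arrays. Its arrays thus lay below the intact ones on both days, which held for 8.94% of all probe sets at day 1 and 6.68% at day 3. At day 3 Marco, a scavenger receptor, also lay below them, and Mertk, another marker of the list, lay above them (7.19% of all probe sets). Mertk read 9.07, 9.31 and 9.14 at day 3, against 9.03, 8.91 and 8.90 on intact arrays. The background limit ran from 5.01 to 5.69 over the arrays and is used below as a mark of background. Positive and negative control probe sets were separated least on replicate 2 of day 1, replicate 1 of day 3 and replicate 2 of day 7, with areas under the curve of 0.809 to 0.837, against 0.852 to 0.888 on the other arrays. The hybridisation control bioB, an RNA added to every sample, read 8.62 to 10.29 at day 1, 7.44 to 7.83 at day 3 and 8.19 to 8.55 at day 7, against 7.53 to 7.72 on intact arrays. The labelling control dap read 6.47 to 7.77 on replicate 1 of day 3 and replicates 2 and 3 of day 7. It read 2.13 to 2.89 on the other arrays, which include every intact and day 1 array. Only Tgfb1 and Igf1 were above the background limit on all 12 arrays. Vegfa was above it on 8, Hgf on 4 and Pdgfb on 3, and Tgfb2, Fgf1, Hbegf and Tgfa on 0. Differences given for the last 4 genes are between signals within background.

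Hgf had its lowest values at day 1. Its log2 signal was 5.34, 5.31 and 5.35 on the intact arrays, 4.08, 2.99 and 4.63 at day 1, 5.24, 5.85 and 5.09 at day 3, and 4.94, 4.84 and 4.43 at day 7. Every day 1 array and every day 7 array lay below every intact array, while the day 3 arrays lay on both sides of them. The mean was 3.90 ± 0.83 at day 1 against 5.33 ± 0.02 in intact mice (SD, n = 3), a log2 difference of -1.43 ± 0.34 (SE) with an adjusted p of 0.270 in limma. All 3 day 1 arrays were under the background limit and all 3 intact arrays above it. Without day 1 replicate 2 the difference was -0.98 ± 0.25. At day 3 Hgf differed from intact by 0.06 ± 0.34, with a 95% interval from -0.69 to 0.80, and at day 7 by -0.60 ± 0.34 (interval -1.34 to 0.15). Day 1 values reached from the 59.4th to the 92.3rd percentile of the negative controls, against the 95.2nd to the 95.7th on intact arrays.

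Vegfa, the gene of the main endothelial growth factor, was also lowest at day 1. It read 5.41, 6.02 and 6.21 on the intact arrays, 4.998, 3.40 and 5.06 at day 1, 6.33, 6.66 and 5.91 at day 3, and 5.17, 5.86 and 4.68 at day 7. The day 1 arrays lay below all intact arrays and below all day 3 arrays, and the day 7 arrays overlapped the intact ones. The log2 difference from intact was -1.40 ± 0.43 at day 1 (adjusted p = 0.375 in limma), 0.42 ± 0.43 at day 3 and -0.64 ± 0.43 at day 7. Day 1 replicate 2 enlarged the first of these, which was -0.85 ± 0.34 without it. With 1 array left out, the day 3 difference ran from 0.19 (without intact replicate 1) to 0.62 and the day 7 difference from -0.96 (without day 7 replicate 2) to -0.37 (without day 7 replicate 3). Day 3 exceeded day 1, where every array was under the background limit, by 1.82 ± 0.43 on the log2 scale (adjusted p = 0.320), larger in size than the same difference for 99.9% of all probe sets. At day 7 it was -1.07 ± 0.43 relative to day 3, again without overlap of the arrays (adjusted p = 0.951). For Hgf the difference between day 3 and day 1 was 1.49 ± 0.34 (adjusted p = 0.319).

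Over the 12 arrays Vegfa was the third most similar gene to Hgf, and Hgf the second most similar to Vegfa, among 17040 named genes (Pearson's r = 0.927, Spearman's rho = 0.881). Pmp22, which encodes a membrane protein of myelin also found in epithelia and endothelia, headed both rankings, with r = 0.963 to Hgf and 0.941 to Vegfa. Without day 1 replicate 2, the array lowest in both, r between Hgf and Vegfa was 0.835. These are descriptions of arrays that share their group means, and the highest of many correlations was taken in each case.

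The 250 bases before the annotated start of Hgf and Vegfa are given because these genes had the 2 largest differences at day 1, and those of Tgfb1 because its level varied least over the arrays. RefSeq windows (GRCm38.p6) existed for 7 of the 10 genes. Capitals mark matches on either strand to the GC box, spelled GGGCGG, to the hypoxia response core, spelled ACGTG or otherwise GCGTG, and to the CCAAT box. The TATA box, spelled TATAAA, the CRE core, spelled TGACG, and the AP-1 site, spelled TGACTCA or otherwise TGAGTCA, were also searched and gave 0 matches in the 3 windows. The Hgf window lies at chr5:16553245-16553494 on the plus strand, that of Vegfa at chr17:46032378-46032627 on the minus strand and that of Tgfb1 at chr7:25686752-25687001 on the plus strand.
Hgf: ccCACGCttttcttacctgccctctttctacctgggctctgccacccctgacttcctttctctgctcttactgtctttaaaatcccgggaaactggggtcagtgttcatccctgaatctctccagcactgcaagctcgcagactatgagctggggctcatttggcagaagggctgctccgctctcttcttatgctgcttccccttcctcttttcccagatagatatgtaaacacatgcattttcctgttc
Vegfa: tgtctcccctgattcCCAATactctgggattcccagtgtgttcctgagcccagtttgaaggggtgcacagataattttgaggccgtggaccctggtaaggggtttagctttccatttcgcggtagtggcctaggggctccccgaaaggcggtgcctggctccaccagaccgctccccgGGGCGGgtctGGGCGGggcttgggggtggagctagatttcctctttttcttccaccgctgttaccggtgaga
Tgfb1: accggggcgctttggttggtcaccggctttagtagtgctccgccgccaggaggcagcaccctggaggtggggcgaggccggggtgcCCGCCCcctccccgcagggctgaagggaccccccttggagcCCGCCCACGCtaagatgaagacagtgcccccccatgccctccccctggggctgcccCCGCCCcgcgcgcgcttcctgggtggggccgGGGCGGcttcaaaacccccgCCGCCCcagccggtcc

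The Hgf window held 50.8% G and C, no GC box and 1 hypoxia response core. That of Vegfa held 59.2% G and C, 2 GC boxes and 1 CCAAT box, and that of Tgfb1 75.2% G and C, 5 GC boxes and 1 hypoxia response core, which overlaps a GC box. The median over 32851 windows of the same length was 52.4% G and C. A GC box was present in 32.7% of these windows, a hypoxia response core in 38.6%, a CCAAT box in 33.8%, a TATA box in 12.4%, the CRE core in 17.8% and an AP-1 site in 4.5%. The motifs describe these letters only.

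Fgf1, a factor without a signal peptide that binds all FGF receptors, was low on the resected arrays at days 1 and 7. Its log2 signal was 4.87, 4.46 and 4.93 on the intact arrays, 4.02, 2.50 and 3.79 at day 1, 4.80, 3.97 and 4.39 at day 3, and 3.69, 4.29 and 3.98 at day 7. The arrays of days 1 and 7 all lay below the intact arrays, and those of day 3 overlapped them. The difference from intact was -1.32 ± 0.35 at day 1 (adjusted p = 0.289 in limma), -0.37 ± 0.35 at day 3 and -0.77 ± 0.35 at day 7. It was -0.85 ± 0.26 at day 1 without replicate 2 of that day. At day 3 it was -0.57 without replicate 1 and -0.16 without replicate 2. Its nearest genes over the 12 arrays were Ankrd26 (r = 0.957), Utrn, which encodes the dystrophin relative utrophin (r = 0.956), and Fam71a (r = 0.954).

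Pdgfb, whose product recruits pericytes and other mesenchymal cells, showed no group that stood clear of another. Its signal was 5.46, 5.33 and 4.88 on intact arrays, 4.78, 4.56 and 5.10 at day 1, 5.29, 4.68 and 4.61 at day 3, and 5.39, 5.12 and 5.05 at day 7. The differences were -0.41 ± 0.23, -0.36 ± 0.23 and -0.03 ± 0.23 at days 1, 3 and 7, and the 95% interval of the last ran from -0.53 to 0.47. Nusap1, which encodes a spindle protein, and Mki67, the gene of the proliferation marker Ki-67, were among the 3 genes most similar to Pdgfb over the 12 arrays (r = 0.912 and 0.869), with Ybx3 (r = 0.893) between them.

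Of the EGF receptor ligands, Tgfa was low at day 1. It read 3.27, 2.92 and 3.15 on intact arrays, 2.57, 2.67 and 2.80 at day 1, 3.27, 3.40 and 3.05 at day 3, and 3.12, 3.24 and 2.92 at day 7. The day 1 arrays lay below every array of the other groups. The difference from intact was -0.43 ± 0.17 at day 1 (adjusted p = 0.483 in limma) and -0.43 ± 0.18 without day 1 replicate 2. It was 0.12 ± 0.17 at day 3 and -0.02 ± 0.17 at day 7. All these values lay between the 46.2nd and 77.3rd percentile of the negative controls, inside the background range. The genes nearest to Tgfa were F8a (r = 0.925), Arhgap6 (r = 0.873) and Ttpal (r = 0.863).

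Hbegf spread more over the intact arrays, at 3.36, 3.79 and 4.44, than within any other group, and read 3.49, 3.38 and 3.65 at day 1, 4.01, 3.34 and 3.20 at day 3, and 3.01, 3.60 and 2.97 at day 7. Each group overlapped the intact arrays. The mean at day 7 was 3.20 ± 0.35 against 3.86 ± 0.54 in intact mice (SD, n = 3), a difference of -0.67 ± 0.29 (adjusted p = 0.838 in limma) that was -0.38 without intact replicate 3. The difference at day 1 was -0.35 ± 0.29, which became -0.61 when intact replicate 1 was dropped and -0.07 when replicate 3 was. The 3 genes most similar to Hbegf were Rgs4, a regulator of G protein signalling (r = 0.916), Aqp5, the water channel of type 1 alveolar cells (r = 0.904), and Foxf1, a transcription factor of lung mesenchyme and endothelium (r = 0.902).

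Tgfb2 read 3.28, 3.12 and 3.37 on intact arrays, 2.59, 2.53 and 2.70 at day 1, 2.36, 2.62 and 2.87 at day 3, and 2.54, 2.44 and 2.53 at day 7. All 9 arrays of resected mice lay below all 3 intact arrays. The differences from intact were -0.65 ± 0.16, -0.64 ± 0.16 and -0.76 ± 0.16 at days 1, 3 and 7, with adjusted p of 0.288, 0.531 and 0.256 in limma. The 3 comparisons share the intact arrays, and day 7 differed from day 3 by -0.11 ± 0.16. The day 7 difference passed the threshold of 0.05 with array weights (-0.72, adjusted p = 0.0231) and in no other alternative. Its values lay between the 37.6th and 79.5th percentile of the negative controls, so that the intact arrays too were within background. Klf17, a transcription factor (r = 0.907), Serpinb10, a protease inhibitor (r = 0.905), and Mpig6b, a receptor of megakaryocytes and platelets (r = 0.886), were nearest to Tgfb2.

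Tgfb1, the main TGF-beta of leukocytes, read 9.37, 9.30 and 9.30 on intact arrays, 9.01, 9.30 and 9.08 at day 1, 9.11, 9.30 and 9.17 at day 3, and 9.50, 9.04 and 8.99 at day 7. The groups overlapped. Its differences from intact were -0.19 ± 0.17, -0.13 ± 0.17 and -0.15 ± 0.17 at days 1, 3 and 7. The 95% intervals ran from -0.56 to 0.17, from -0.50 to 0.24 and from -0.52 to 0.22. Its values lay between the 99.0th and 99.6th percentile of the negative controls. The genes nearest to Tgfb1 were Ift22 (r = 0.868), Cldn12 (r = 0.839) and Cox15 (r = 0.837).

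Igf1 had its highest mean at day 3 and stood above background on every array. It read 8.43, 7.38 and 6.84 on intact arrays, 7.33, 6.99 and 7.77 at day 1, 8.02, 9.42 and 8.42 at day 3, and 7.97, 7.79 and 8.23 at day 7. The day 3 arrays overlapped the intact arrays through intact replicate 1, and they lay above all day 1 arrays. The mean at day 3 was 8.62 ± 0.72 against 7.55 ± 0.81 in intact mice (SD, n = 3), a difference of 1.07 ± 0.41 (adjusted p = 1.000 in limma) that was 0.67 without day 3 replicate 2. Relative to day 1 the difference was 1.26 ± 0.41 (adjusted p = 0.416). The difference from intact was -0.18 ± 0.41 at day 1. At day 7 it was 0.45 ± 0.41, and it was 0.09 once intact replicate 3 was dropped and 0.89 once replicate 1 was. The genes most similar to Igf1 were Myo5a, a myosin motor (r = 0.889), Il7r, the interleukin 7 receptor chain (r = 0.883), and Anpep, aminopeptidase N (r = 0.878).

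**Figure D1:**
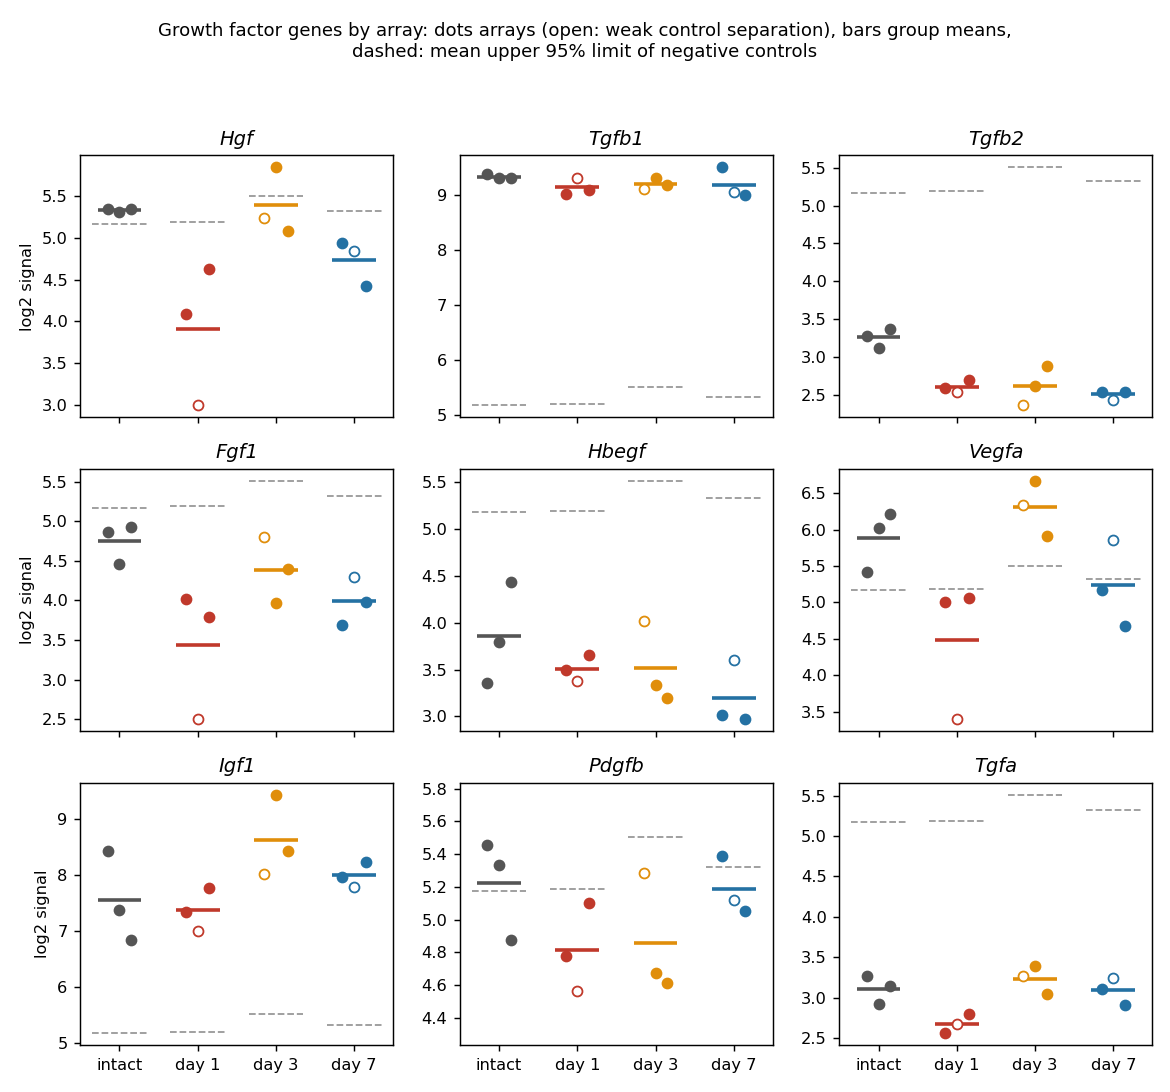
Log2 signal (vertical axes, 1 scale per panel) of the 9 measured growth factor genes on each array of the intact, day 1, day 3 and day 7 groups; bars are group means, open dots the 3 arrays with the weakest separation of controls, and the dashed line the mean upper 95% limit of the negative controls. Hgf, Vegfa and Fgf1 are lowest on day 1 replicate 2, Tgfb2 is lower on all 9 resected arrays than on the intact ones, and only Tgfb1 and Igf1 stay above the dashed line throughout.

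At day 1 the 9 genes were all lower on average than in intact mice, with a median difference of -0.43, against -0.01 over all probe sets, and 51.5% of all probe sets had an estimate below 0. In limma 0 of 9 reached an adjusted p under 0.05, as did 0% of all probe sets, and 5 of 9 (Hgf, Tgfb2, Fgf1, Vegfa and Tgfa) had an unadjusted p under 0.05 and were lower, against 5.9% of all probe sets. The same 5 had day 1 arrays that all lay below the intact arrays, against 8.94% of all probe sets. They were the same 5 after quantile normalization or median centring. Without the 3 weakly separating arrays, an alternative chosen after seeing the data, they were 6 of 9, with Tgfb1 added, against 14% of all probe sets.

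At day 3 5 of 9 genes were lower and 4 higher, with a median of -0.13, against 0.00 over all probe sets, of which 49.7% had an estimate below 0. None passed in limma (0 of 9, against 0.0045% of all probe sets), and 2 had an unadjusted p under 0.05, Tgfb2 lower (2.5% of all probe sets) and Igf1 higher (1.96%). Only Tgfb2 had arrays clear of and below the intact ones, against 6.68% of all probe sets. Without the 3 weakly separating arrays, or without day 3 replicate 1 alone, Tgfb2, Fgf1, Hbegf and Pdgfb lay below (13.4% of all probe sets in both cases).

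At day 7 8 of 9 genes were lower, with a median of -0.60, against -0.01 over all probe sets, of which 51.7% had an estimate below 0, and Igf1 was higher. In limma 0 of 9 passed, against 0.018% of all probe sets, and Tgfb2, Fgf1 and Hbegf were lower at an unadjusted p under 0.05, against 3.74% of all probe sets. Hgf, Tgfb2 and Fgf1 had arrays clear of and below the intact ones, against 8.15% of all probe sets. After quantile normalization Fgf1 overlapped and Hgf and Tgfb2 were left (7.98% of all probe sets). Hbegf and Vegfa joined the 3 without the weakly separating arrays (13.2% of all probe sets).

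**Figure D2:**
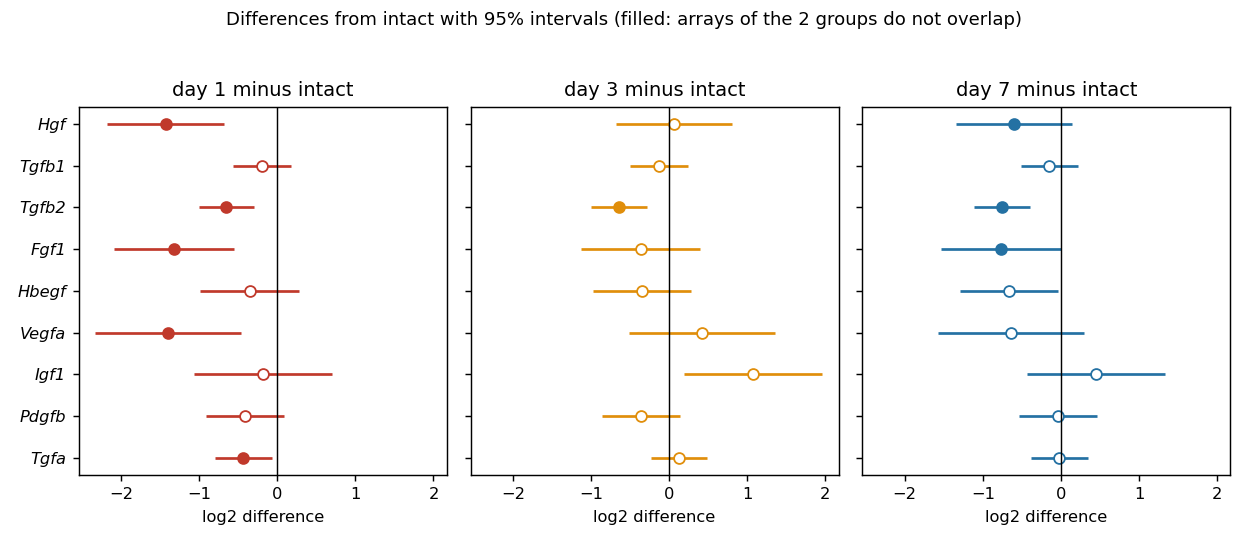
Log2 difference from intact (horizontal axes) of each growth factor gene at days 1, 3 and 7, with limma's 95% intervals as lines; filled dots mark genes whose arrays do not overlap the intact ones. The intervals of Hgf, Tgfb2, Fgf1, Vegfa and Tgfa lie below 0 at day 1, and Tgfb2 is the one gene whose interval lies below 0 with filled dots on all 3 days.

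Between days, all 9 genes were higher at day 3 than at day 1, with a median of 0.56, and 49% of all probe sets had an estimate below 0. Hgf, Vegfa, Igf1 and Tgfa had day 3 arrays above all day 1 arrays, against 7.03% of all probe sets, and 0 of 9 passed in limma (0% of all probe sets), with 5 higher at an unadjusted p under 0.05 (6.32%). Day 7 arrays lay above day 1 arrays for Igf1 and Tgfa (4.55% of all probe sets) and below day 3 arrays for Hgf and Vegfa (5.69%), and 0 of 9 passed in either comparison (0% in both). At an unadjusted p under 0.05, Hgf and Tgfa were higher at day 7 than at day 1 (3.81% of all probe sets) and Vegfa lower at day 7 than at day 3 (3.1%). The moderated F test over the 4 groups passed for 0 of 9 genes, against 0.00901% of all probe sets, with unadjusted p of 0.002 for Tgfb2 and 0.00292 for Hgf. For Hgf, Vegfa and Tgfa every day 1 array lay below every one of the 6 intact and day 3 arrays, which held for 2.72% of all probe sets, a pattern picked out after the values were seen.

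Hgf, Vegfa and Fgf1 had their lowest mean at day 1 and the next lowest at day 7, while bioB was highest at day 1 and next highest at day 7. The bioB ranges of days 1 and 7 did not overlap those of intact arrays, and the ranges of days 1, 3 and 7 did not overlap each other. In those comparisons, which include all comparisons between days, bioB and the group cannot be told apart. Day 3 and intact arrays overlapped in bioB. There Hgf, Vegfa and Fgf1 differed by 0.06 ± 0.34, 0.42 ± 0.43 and -0.37 ± 0.35, and Tgfb2 by -0.64 ± 0.16. The relation of these values to bioB was not tested.

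RNA of other lung cells was on the arrays and moved with the groups. The mean level of 12 of 13 fibroblast and smooth muscle markers was 3.07 to 4.33 at day 1, 3.62 to 4.42 at day 3 and 3.74 to 3.98 at day 7, against 4.75 to 5.34 on intact arrays, and 8 to 12 of the 12 lay under the background limit on a resected array, against 5 to 9 on an intact one. That of 11 of 12 endothelial markers was 3.65 to 5.43 at day 1, 4.47 to 5.80 at day 3 and 4.29 to 5.33 at day 7, against 5.58 to 6.47 on intact arrays. Of type 2 alveolar cells, which make surfactant, 10 markers averaged 4.30 to 6.26 at day 1, 5.62 to 6.64 at day 3 and 5.36 to 5.66 at day 7, against 6.53 to 7.06 on intact arrays. The median differences from intact at days 1, 3 and 7 were -1.27, -1.09 and -0.97 for the fibroblast list, -1.45, -1.16 and -1.50 for the endothelial list and -1.34, -0.85 and -1.52 for the type 2 list. They were -0.62, -0.31 and -0.71 for the type 1 list. Of the fibroblast list 1 marker passed in limma at day 3 and 2 at day 7, and of the type 2 list 1 at day 7, against 0.0045% of all probe sets at day 3 and 0.018% at day 7.

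Neutrophil markers ran the other way, with medians of 1.02, 0.93 and 1.26, and 0 of 11 passed in limma at days 1, 3 and 7, against 0%, 0.0045% and 0.018% of all probe sets. Of the 11, 5, 7 and 8 had arrays above all intact arrays on these days, against 7.42%, 7.19% and 6.11% of all probe sets. Eosinophils also carry Siglec-F, and 7 of their markers averaged 4.62 to 5.35 at day 1, 4.71 to 5.93 at day 3 and 5.38 to 6.72 at day 7, against 4.73 to 5.71 on intact arrays. Of the 7, 1, 2 and 4 had arrays above all intact arrays on these days, against 7.42%, 7.19% and 6.11% of all probe sets. Ccr3 and Il5ra were among them at days 3 and 7. None lay below all intact arrays, and 0 of 7 passed in limma, against 0%, 0.0045% and 0.018% of all probe sets. The calprotectin gene S100a8 read 10.34, 8.70 and 10.04 at day 1, against 9.13, 8.12 and 8.38 on intact arrays. At day 1 Tgfb2, Fgf1, Hgf and Vegfa were thus low on arrays where tissue markers were low too. On day 3 replicate 2 the endothelial, fibroblast and type 2 lists averaged 4.47, 3.62 and 5.62, below every intact array. Hgf and Vegfa had their highest values there, 5.85 and 6.66, while Fgf1 and Tgfb2 read 3.97 and 2.62, below the intact arrays. The part of these cells in the growth factor values was not tested. At day 3 the means of the endothelial, type 2 and type 1 alveolar lists overlapped the intact ones through replicate 1, and those of the fibroblast list did not. Hgf and Vegfa lay at 5.39 ± 0.40 and 6.30 ± 0.38 at day 3, against 5.33 ± 0.02 and 5.88 ± 0.42 in intact mice (SD, n = 3). Fewer cells of a type and less RNA per cell cannot be told apart in such bulk samples.

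**Figure D3:**
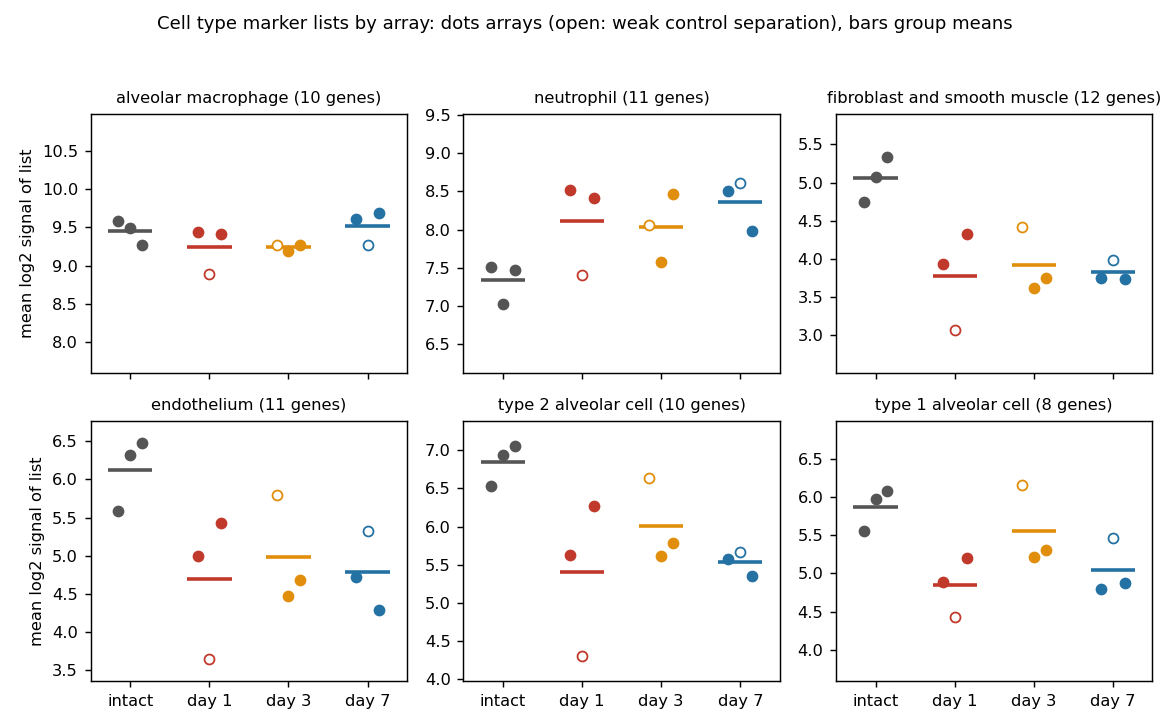
Mean log2 signal (vertical axes, 1 array per dot, bars group means, open dots the 3 weakly separating arrays) of 6 cell type marker lists in the intact, day 1, day 3 and day 7 groups. Fibroblast and smooth muscle markers lie at 3.07 to 4.42 on all resected arrays and at 4.75 to 5.34 on intact arrays, whereas alveolar macrophage markers lie between 8.89 and 9.69 on all arrays.

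The pathways of these factors were followed with 12 lists of ligands, receptors, carriers and targets, which held 128 measured genes of 134 besides the growth factors. The counts over these 128 leave the growth factors out. The medians and counts of a single list include the growth factors that belong to it. In limma 0 of 128 passed on any day, against 0%, 0.0045% and 0.018% of all probe sets at days 1, 3 and 7, with 27, 13 and 18 at an unadjusted p under 0.05, against 8.94%, 4.46% and 5.7% of all probe sets. At day 1 36 of 128 had arrays below all intact arrays and 6 above them, at day 3 18 and 5, and at day 7 30 and 3. These are 28.1%, 14.1% and 23.4% lower, against 8.94%, 6.68% and 8.15% of all probe sets, and 4.69%, 3.91% and 2.34% higher, against 7.42%, 7.19% and 6.11%. The lists contain genes of vessels and stroma, whose markers were low on the same arrays.

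Among the partners of HGF, Plau, the urokinase that can cleave pro-HGF, read 3.95, 3.27 and 4.62 at day 1, against 5.36, 5.40 and 5.48 on intact arrays. Its arrays lay below the intact ones at days 1, 3 and 7, which held for 8.94%, 6.68% and 8.15% of all probe sets. The difference at day 1 was -1.47 ± 0.30 (adjusted p = 0.213 in limma). All day 1 and day 3 values of Plau were under the background limit, and all intact values were above it. The HGF receptor Met differed by 0.11, 0.17 and -0.32 at days 1, 3 and 7, all between signals under the background limit. The median of the 12 measured genes of this list was 0.05, -0.01 and -0.01.

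Adam17, the sheddase that releases Tgfa and other EGF receptor ligands, was measured well above background. It read 8.09, 7.98 and 8.05 at day 1, against 8.52, 8.65 and 8.54 on intact arrays, without overlap (difference -0.53 ± 0.15, adjusted p = 0.313 in limma). Day 1 arrays lay below the intact ones for 8.94% of all probe sets. Of 9 measured EGF family ligands, Nrg4 lay above the intact arrays at days 1 and 3 (7.42% and 7.19% of all probe sets). Nrg1, which was under the background limit on every array, lay below them at days 3 and 7 (6.68% and 8.15%). The medians of this list, which includes Tgfa and Hbegf, were -0.35, 0.00 and -0.02. The first is the value of Hbegf itself and the last that of Tgfa.

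Of 15 TGF-beta receptors and SMADs, the receptors and signal carriers of the pathway, 13 were lower at day 1, against 51.5% of all probe sets, and 6 of them did not overlap the intact arrays, against 8.94%. The medians were -0.65, -0.23 and -0.46 at days 1, 3 and 7. Tgfbr3, the co-receptor betaglycan that presents TGF-beta 2, read 2.75, 2.35 and 2.54 at day 7, against 4.11, 4.01 and 4.54 on intact arrays, and all 12 of its values were under the background limit. Acvrl1, an endothelial receptor of the family, differed by -0.99 ± 0.23 at day 1 (adjusted p = 0.270). The signalling receptor Tgfbr2 differed by 0.08, -0.02 and 0.06.

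The VEGF and PDGF ligands had a median of -0.62 at day 1, 0.01 at day 3 and -0.09 at day 7. Besides Vegfa, the day 1 arrays of Vegfd, Pdgfa, Pdgfc and Pdgfd lay below the intact arrays and those of Pgf, the placental growth factor, above them. With Vegfa these were 5 of 9 below and 1 above, against 8.94% and 7.42% of all probe sets. At day 7 Vegfd and Pdgfd lay below the intact arrays (8.15% of all probe sets), and Vegfb lay above them at days 3 and 7 (7.19% and 6.11%). Vegfb, Pgf, Pdgfa and Pdgfd were under the background limit on every array, and Vegfd on every array but replicate 1 of day 3. The receptors had medians of -0.91, -0.47 and -0.66, and Kdr, the endothelial VEGF receptor, read 5.75, 4.50 and 5.97 at day 1, against 6.74, 7.53 and 7.50 on intact arrays. Kdr is also one of the endothelial markers above.

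The 13 measured hypoxia and glycolysis genes, many of them regulated with Vegfa under low oxygen, had medians of -0.15, -0.06 and -0.04. Hif1a, the oxygen-regulated transcription factor subunit, and Ankrd37 lay above the intact arrays at day 3 (2 of 13, against 7.19% of all probe sets). Hif1a also did at day 7 (1 of 13, against 6.11%) and Egln1 at day 1 (1 of 13, against 7.42%). At days 1 and 7 this is near the share of all probe sets. Vhl, Adm and Ndrg1 lay below the intact arrays at day 7 (3 of 13, against 8.15% of all probe sets). Ankrd37, Adm and Vhl were under the background limit on every array, and Ndrg1 was under it on every day 7 array. In the IGF list of 14 genes the medians were -0.21, -0.09 and -0.24, and Igf2r, which clears IGF-2, read 3.33, 2.65 and 2.87 at day 7, against 3.47, 3.75 and 4.15 on intact arrays, all under the background limit.

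**Figure D4:**
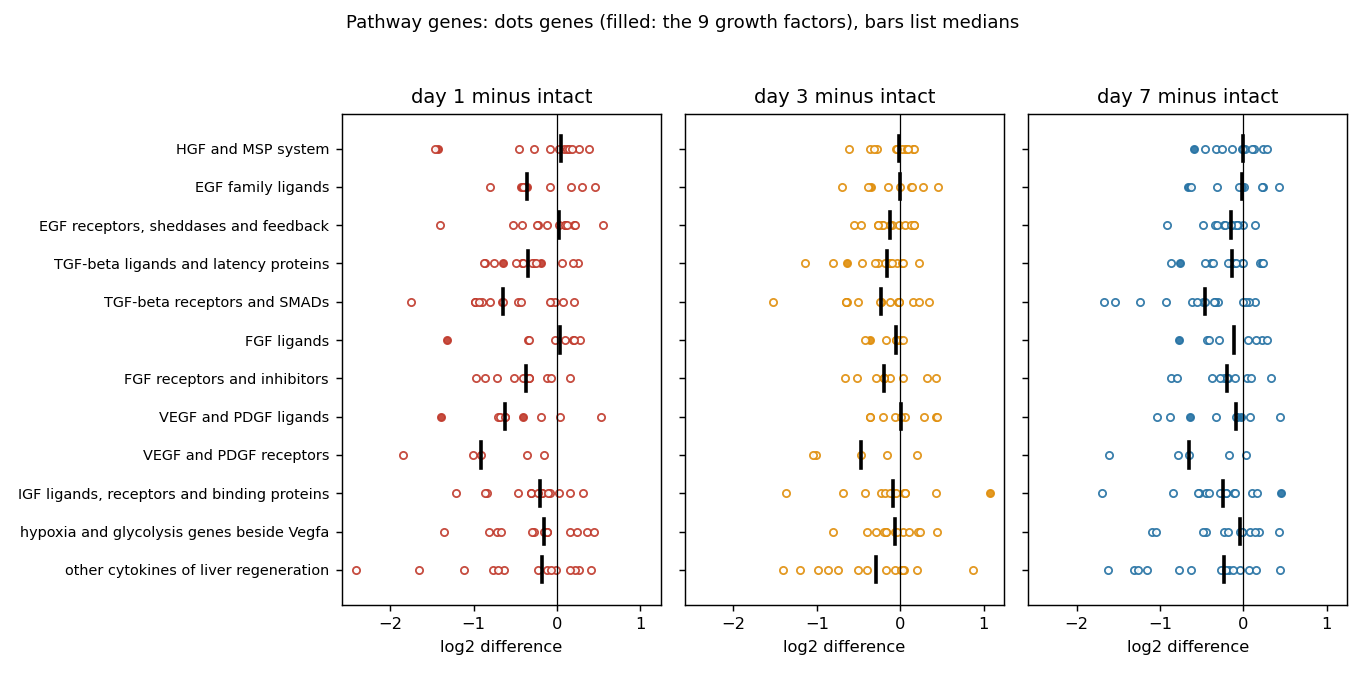
Log2 difference from intact (horizontal axes) of the genes of 12 pathway lists at days 1, 3 and 7, 1 dot per gene, filled for the 9 growth factors, with black bars at list medians. The medians of the TGF-beta receptor, VEGF and PDGF ligand and VEGF and PDGF receptor lists lie farthest below 0 at day 1, at -0.65, -0.62 and -0.91.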

How the data were processed

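The authors deposited 1 log2 signal per probe set and array; the submitters' processing notes name RMA and the Transcriptome Analysis Console. Versions, annotation and genome build are not given in the sources used here, and the log2 scale was read from the values. RMA normalizes quantiles over arrays, so changes shared by most genes are removed. Of 28846 probe sets 6640 controls were left out, and 22206 were tested. Groups came from the sample titles, 3 arrays each, and the number of arrays limits precision.

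All comparisons came from 1 linear model over 12 arrays in limma 3.58.1 under R 4.3.3 with group as the only term. P-values were two-sided and adjusted by Benjamini-Hochberg across all 22206 tested, with a threshold of 0.05. The fit was tested on simulated data. The growth factors, lists and alternatives were chosen with earlier results of these data known. Besides the growth factors, the text names up to 2 genes of each list with the smallest F test p, the first genes of marker lists, and the 3 genes with the highest correlation to each growth factor. Other genes named (Met, Tgfbr2, Nrg4, Vegfd, Pdgfa, Pdgfd, Pgf, Hif1a, Ankrd37, Egln1, Vhl, Ndrg1, Marco and Mertk) were chosen after their values were seen. Counts without overlap under other settings were also added after the data were seen. Arrays with the same replicate number were no more alike than others, and the main model did not pair them.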

Additional observations from a re-analysis of the deposited data

How the results depend on the processing

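With every alternative but 1, 0 of 9 growth factors passed the threshold in each comparison. With array weights 1 passed at day 7 and 1 in the F test, Tgfb2 at day 7 with a difference of -0.72 and an adjusted p of 0.0231 in limma. With the replicate number as a block 0 passed at days 1, 3 and 7. Correlations of deviations ran from -0.24 to 0.26 over 18 same-number pairs, 3 of them over 0.1. Over 36 pairs of different number they ran from -0.32 to 0.28, with 7 over 0.1. Arrays of the same number were thus no more alike than others, which does not exclude a batch shared by number. The filter on dim probe sets kept 5 of the 9 genes and gave no value for Tgfb2, Fgf1, Hbegf and Tgfa.

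Small differences turned sign. Pdgfb at day 7 was 0.072 after quantile normalization and 0.016 after median centring, Tgfa at day 7 was 0.028 after median centring, Igf1 at day 1 was 0.057 with array weights and 0.0017 without the weakly separating arrays, and Tgfb1 at day 7 was 0.054 with the labelling control dap as a block. With 1 array left out, Igf1 at day 1 ran from -0.54 to 0.26, Hgf at day 3 from -0.17 to 0.21, Pdgfb at day 7 from -0.21 to 0.084 and Tgfa at day 7 from -0.12 to 0.066. After quantile normalization the growth factors without overlap at day 7 numbered 2, without Fgf1. The growth factors without overlap numbered 4 at day 3 and 5 at day 7 without the weakly separating arrays, and ran from 1 to 4 and from 3 to 6 with 1 array left out. The cause was not tested, beyond the smaller groups, which overlap less.

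Over all probe sets, the counts past the threshold (higher and lower) at days 1, 3 and 7 were 14 and 29, 102 and 196, and 83 and 319 with array weights, and 20 and 51, 69 and 183, and 47 and 233 without the weakly separating arrays, against 0 and 0, 0 and 1, and 0 and 4. With only the groups compared, day 7 gave 10 and 38. Background signal limits Tgfb2, Fgf1, Hbegf and Tgfa on all arrays. Of the other genes named, it likewise limits Tgfbr3, Igf2r, Met, Nrg1, Vegfb, Pgf, Pdgfa, Pdgfd, Adm, Vhl and Ankrd37. It also limits Vegfd on all arrays but replicate 1 of day 3, Plau at days 1 and 3, and Ndrg1 at day 7.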
